A study of Mus musculus with 10 samples.

Results

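The myosin heavy chains of skeletal and cardiac muscle were followed in 10 mouse RNA sequencing libraries. The members were 8 genes taken by name: Myh7, Myh7b, Myh6, Myh2, Myh1, Myh4, Myh8 and Myh3. They are 8 of the 20009 genes with a count in the series. For each library the deposited read counts were summed over the transcripts of each gene, and soleus was compared with tibialis anterior (TA) gene by gene, and transcript by transcript for Myh8, Myh7 and Myh6. The study set the slow-twitch soleus, a calf muscle, against the fast-twitch TA, a muscle of the shin. All mice had the wild-type genotype, and each muscle was represented by 3 males and 2 females, so n = 5 libraries per muscle. No age, strain or treatment is given in the labels. The labels number the samples of each sex but do not describe the animals further, so p-values measure the spread between these samples. Libraries of the same sex and number were taken as the same animal where animals are counted below. The main fit did not pair them.

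A myosin heavy chain holds the motor head that splits ATP and pulls on actin, and the long tail that packs into the thick filament. Adult skeletal fibres are typed by the chain they use: Myh7 encodes the slow chain, Myh2 the IIa chain, Myh1 the IIx chain and Myh4 the IIb chain, which is the fastest. Myh3 and Myh8 encode the embryonic and perinatal chains of developing muscle, Myh6 the alpha chain of the heart, and Myh7b an ancient slow chain whose intron carries a microRNA. Soleus of the mouse is known for slow and IIa fibres and TA for IIb and IIx fibres.

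Library totals ran from 726414 to 961844 counts. Of these, 17.2% to 28.4% fell on Gm20594 and 3.85% to 6.26% on Cep295, 2 genes unrelated to the thick filament. The 8 members held 1802 to 2981 counts per library. Of the marker lists, 7 of 7 tested slow-fibre genes were higher in soleus and 7 of 8 fast-fibre genes higher in TA. Of all tested genes, 11.0% were called each way. These counts are a description: the slow-fibre genes Myl2 and Tnni1 had 0 counts in TA and passed the filter on low counts through soleus alone. Casq2, another slow-fibre gene, had 2 counts in each muscle and was not tested. One library, the second female soleus, stood apart: it listed 22862 transcripts where the other 9 listed 14993 to 16575, and 12.5% of its counts outside those 2 genes fell on transcripts annotated with a retained intron, against 6.19% to 10.8% in the others. Results on such transcripts are given below with and without it.

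The members do not have equal stretches of sequence to themselves. Their coding sequences are close copies: the identity, after alignment of each pair, was 91.7% between Myh6 and Myh7, with a longest identical run of 245 bases. It was 91.0% between Myh1 and Myh2, with a run of 268 bases, and 87.9% between Myh4 and Myh8, with a run of 164 bases. Myh7b was the most distant member, at 68.8% to 72.0% with the others. The 60-base coding window in which all 8 were most alike, with a mean pairwise identity of 96.0%, is shown for 4 members, with capitals at the bases that differ from Myh7. It comes from the GENCODE M21 transcripts of GRCm38 and lies 5′ to 3′ on the coding strand, at coding bases 1423 to 1482 of Myh7-201.
Myh7: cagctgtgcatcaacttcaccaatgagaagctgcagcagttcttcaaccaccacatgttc
Myh6: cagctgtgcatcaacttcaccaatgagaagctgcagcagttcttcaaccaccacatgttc
Myh4: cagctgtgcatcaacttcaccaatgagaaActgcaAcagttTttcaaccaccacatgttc
Myh8: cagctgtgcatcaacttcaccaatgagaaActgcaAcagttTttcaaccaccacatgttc
In this window Myh6 had 0 differences from Myh7, and Myh4 and Myh8 each had 3 and matched each other. A read from any of these 4 that lies within the window fits another of them. Myh2, not shown, has the same letters as Myh4. Myh1, Myh3 and Myh7b, also not shown, differed from Myh7 at 3, 4 and 2 bases, each in its own way.

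The window of the 4 adult and perinatal genes of chromosome 11 that differed most, with a mean pairwise identity of 71.4%, shows what separates them. It spans coding bases 1836 to 1895, and capitals mark the bases that differ from Myh4.
Myh4: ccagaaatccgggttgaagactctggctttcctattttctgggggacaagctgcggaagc
Myh1: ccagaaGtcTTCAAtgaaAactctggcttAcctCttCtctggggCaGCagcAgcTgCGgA
Myh2: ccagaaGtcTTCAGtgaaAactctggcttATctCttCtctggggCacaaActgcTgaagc
Myh8: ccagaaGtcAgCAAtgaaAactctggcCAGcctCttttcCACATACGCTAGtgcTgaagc
Here Myh1 differed from Myh4 at 18 positions, Myh2 at 14 and Myh8 at 23.

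Transcripts holding sequence found in no other took nearly all counts, but not in proportion to its amount. Each transcript was cut into all its stretches of 31 bases (31-mers), and a 31-mer was called own if no other annotated transcript, of the same or another gene, holds it. The members have 34 annotated transcripts. Of these, 3 have no own 31-mer, namely Myh1-202, Myh2-201 and Myh4-202, and all 3 had 0 counts. A further 17 have 1 to 100 own 31-mers, and 11 of those had a count, 104 counts in all, or 0.469% of the counts on the members. The remaining 14 have more than 100, and 13 of those had a count, 22091 in all, or 99.5%. The bound of 100 lies just under the 3 of these with the fewest, Myh4-201, Myh7-204 and Myh7-201, at 104, 104 and 108, which held 16128 counts, or 72.7%. The other 11 held 5963: Myh7b-201, with 5304 own 31-mers, had 811 counts in soleus, and Myh8-203, with 555, had none. A full coding transcript can therefore stand in the files at 0, as Myh2-201, a IIa coding transcript, did. How the authors treated reads that fit several transcripts is not given in the sources used here, so a low count of a member, or none, cannot be read as a low level of its mRNA.

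The own sequence sat in very different places. Myh4-201, the only Myh4 transcript with a count, has 104 own 31-mers, 63 at its 5′ start and 41 in its 3′ untranslated region. Myh7-201 has 108, of which 83 run to its 3′ end and 25 lie in the 5′ untranslated region. Myh8-201, the full perinatal coding transcript, has 2205, mostly within its coding sequence, and Myh7b-201 has 5304, the most of the members. For Myh2 the only long own stretch is an intron: Myh2-202, annotated as a retained-intron transcript of the 5′ end of the gene, has 1054. Myh6-206, a retained-intron transcript near the 3′ end of Myh6, has 314. The own sequence of these transcripts of Myh4, Myh7, Myh2 and Myh6 thus lay mostly in untranslated ends or introns. Their 31-mers found in no other gene were more, at 4166 of 5986 in Myh4-201 and 3713 of 6105 in Myh7-201. The counts do not show where in a transcript the reads lay.

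**Figure D1:**
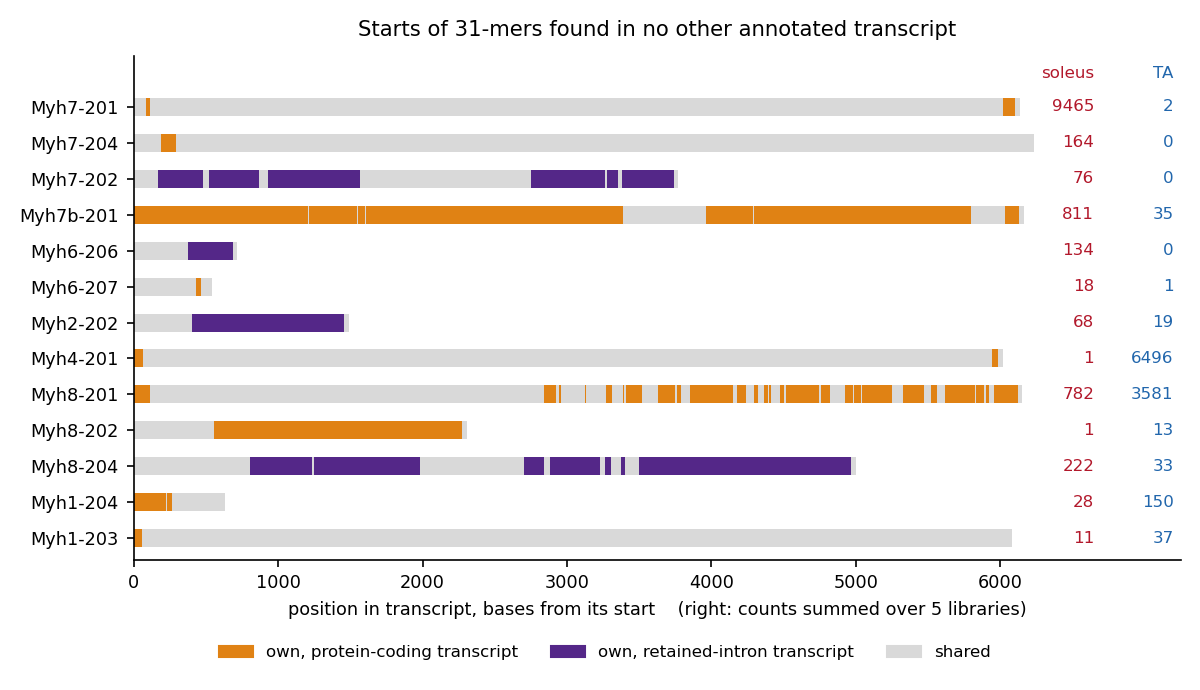
Own 31-mers along 13 transcripts of the members, plotted as the position of their first base from the transcript start (horizontal axis, bases); orange marks own sequence of protein-coding transcripts, purple that of retained-intron transcripts and grey shared sequence. The numbers at the right are the counts summed over 5 libraries of each muscle; Myh4-201 had 6496 in TA on 104 own 31-mers, and Myh8-201 had 3581 on 2205.

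Among the slow and cardiac chains, Myh7 (chromosome 14, 54970684 to 54994626, minus strand, GRCm38) set soleus apart from TA. Its counts in soleus were 1778, 1712 and 2075 in the males and 1759 and 2393 in the females. In TA they were 0, 0 and 2 in the males and 0 and 0 in the females. The lowest soleus library thus stood far above the highest TA library, and the 2 TA counts came from 1 library. The mean was 2394 ± 252 in CPM (counts scaled to the library size after TMM normalisation; SD, n = 5) in soleus and 0.462 ± 1.03 in TA. The log2 fold change, soleus over TA, was 11.97 (SE 0.42, edgeR adjusted p = 5.72e-09), and the level was higher in soleus in 5 of 5 animals. Without the third TA male, which held both TA counts, the fitted change was 14.01, so its size rests on that library while the call does not.

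Most Myh7 counts came from Myh7-201, with 9465 in soleus and 2 in TA. Myh7-204, a second protein-coding transcript whose own sequence is a stretch of 5′ untranslated exon of 104 own 31-mers, had 49, 11, 15, 46 and 43 counts in soleus (males 1 to 3, then females 1 and 2) and 0 in each TA library. Set against 3 counts, taken as the most that a TA group total of 0 allows, its soleus level was at least 60.3-fold higher (edgeR adjusted p = 0.000283, transcript test). Both coding transcripts passed the filter on low counts through soleus libraries alone, so they had to be higher there, and their calls are a description. Per own 31-mer, a scale that divides the CPM of a transcript by its own sequence, Myh7-201 stood in soleus at 21783 ± 2521 CPM per 1000 own 31-mers and Myh7-204 at 389 ± 212.

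A retained-intron transcript of the same gene, Myh7-202, had 2, 6 and 7 counts in the soleus males and 5 and 56 in the soleus females, and 0 in every TA library. The second female held 56 of its 76 counts. By the same bound its level over the 5 soleus libraries was at least 28.0-fold higher. Without that female 20 counts were left, the mean was 6.39 ± 2.83 CPM (SD, n = 4) in place of 18.4 ± 26.9, and the bound was 9.38-fold. It did not pass the filter and was not tested. It is annotated within chr14:54981174-54987418. The share of retained-intron transcripts in the whole library was also highest in that female, at 12.5%. Its part in these counts was not tested.

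Myh7b (chromosome 2, 155611212 to 155634307, plus strand) had 194, 73 and 142 counts in the soleus males and 132 and 279 in the females. In TA it had 0, 6 and 2 in the males and 19 and 8 in the females. The muscles did not overlap, and TA held under 10 counts in all but the first female. The means were 198 ± 81.5 CPM in soleus and 7.88 ± 8.61 in TA, a log2 fold change of 4.76 (SE 0.47, edgeR adjusted p = 1.51e-05), higher in soleus in 5 of 5 animals. Without the first TA female the change was 5.35. Myh7b-201, its full coding transcript, held 811 of the 820 soleus counts, so this member was counted on a coding transcript. Of 6 listed genes of the muscle spindle, where Myh7b is also known, none passed the filter and Ntf3 was at 0. Their summed level was 2.46 to 5.35 CPM in soleus and 0 to 3.02 in TA. The part of spindles in the Myh7b counts was not tested.

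Myh6 (chromosome 14, 54941921 to 54966927, minus strand), the alpha cardiac chain, lies 3756 bases from Myh7 on the same strand. It had 14, 37 and 49 counts in the soleus males and 20 and 37 in the females. In TA it had 1 count, in the first female. Every soleus library was above every TA library. The means were 38.9 ± 17.6 and 0.233 ± 0.520 CPM, the log2 fold change was 6.71 (SE 0.67, edgeR adjusted p = 1.59e-05), and the ratio of counts had a 95% exact counting interval of 30.6 to 6885. Without the first TA female the fitted change was 8.08, against a TA group then at 0. Such intervals cover counting error only.

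The Myh6 counts were not on its long coding transcripts. Myh6-206, the retained-intron transcript, held 134 of the 157 soleus counts, as 11, 33 and 47 in the males and 19 and 24 in the females, with 0 in each TA library. By the same bound its soleus level was at least 49.3-fold higher (edgeR adjusted p = 0.000348). Like the coding transcripts of Myh7, it passed the filter through soleus libraries alone, so it had to be higher there. Without the second soleus female the transcript had 110 counts and the bound was 51.6-fold (edgeR adjusted p = 0.000248). Myh6-207, a short coding transcript with 31 own 31-mers, had 18 counts in soleus and 1 in TA and did not pass the filter. Myh6-201, a full coding transcript with 69 own 31-mers, had 1 count in all. Without retained-intron transcripts the gene did not pass the filter, so the difference of Myh6 between muscles rests on a retained-intron transcript. Of its 688 31-mers, Myh6-206 shares 212 with Myh7, and Myh6-207 shares 290 of 512. Myh7 was itself higher in soleus, and the part of its reads in these counts was not tested. The counts do not show where in a transcript the reads lay.

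Heart markers were few. Of 9 heart genes, none passed the filter, and Nppb, Tnni3, Myl7 and Nkx2-5 were at 0 in all 10 libraries. Their summed level was 2.64 to 19.4 CPM in soleus and 1.13 to 5.82 in TA, of which Ryr2, the calcium release channel of the heart, had 26 counts over soleus and 7 over TA. Tnnt2, the cardiac troponin T, had 3 and 0. Their part in the Myh6 difference was not tested. In whole muscle, more cells of a type and more RNA per cell cannot be told apart, for Myh6 or any member.

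Myh2 (chromosome 11, 67171027 to 67197517, plus strand), the IIa chain, had 18, 18 and 8 counts in the soleus males and 19 and 8 in the females. In TA it had 6, 4 and 0 in the males and 7 and 3 in the females. The highest TA library, at 8.14 CPM, lay just under the lowest soleus library, at 9.14. The means were 17.8 ± 7.76 and 4.51 ± 3.20 CPM, and the log2 fold change was 1.95 (SE 0.54, edgeR adjusted p = 0.0214), higher in soleus in 5 of 5 animals. Leaving out a library ended the call in 3 of 10 cases, with edgeR adjusted p = 0.0530 without the first soleus male, 0.0566 without the second and 0.0586 without the second TA female. Of its counts, 68 of 71 in soleus and 19 of 20 in TA lay on the retained-intron transcript Myh2-202. That transcript also holds exon sequence, and the counts do not show where in it the reads lay. They cannot be read as a measure of the mature IIa message.

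The sequences at which an intron begins in the counted retained-intron transcripts of Myh2, Myh6 and Myh8 are shown. Each line gives 30 exon bases in lower case and the first 30 intron bases in capitals, which the retained-intron transcript holds and the coding transcripts lack, read 5′ to 3′ on the coding strand from the GENCODE M21 transcripts of GRCm38. The places are chr11:67173539-67173598 (plus strand) for Myh2-202, chr14:54944248-54944307 (minus strand) for Myh6-206 and chr11:67284992-67285051 (plus strand) for Myh8-204.
Myh2-202: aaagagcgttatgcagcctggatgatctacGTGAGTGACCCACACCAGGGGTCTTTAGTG
Myh6-206: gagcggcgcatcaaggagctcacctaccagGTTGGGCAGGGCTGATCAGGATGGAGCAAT
Myh8-204: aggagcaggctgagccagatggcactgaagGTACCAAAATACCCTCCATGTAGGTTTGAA
All 3 introns open with GT, the usual first bases of an intron, and each transcript runs on through the exon edge without a gap in the genome.

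Among the fast chains, Myh4 (chromosome 11, 67238029 to 67260446, plus strand), the IIb chain, was the mirror of Myh7. Its counts in TA were 1041, 2068 and 1264 in the males and 806 and 1317 in the females. In soleus there was 1 count, in the first male. No library of one muscle came near those of the other. The means were 1459 ± 559 CPM in TA and 0.234 ± 0.523 in soleus, and the log2 fold change, soleus over TA, was -11.86 (SE 0.45, edgeR adjusted p = 6.26e-09), higher in TA in 5 of 5 animals. Without the first soleus male, which held the 1 soleus count, the fitted change was -13.21. Within TA the libraries spread by more than those of Myh7 did within soleus, with the second male highest at 2396 CPM and the first female lowest at 938.

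Myh1 (chromosome 11, 67200052 to 67224575, plus strand), the IIx chain, had 47, 32 and 42 counts in the TA males and 46 and 28 in the females. In soleus it had 0, 6 and 14 in the males and 14 and 10 in the females. The lowest TA library, at 28.2 CPM, was above the highest soleus library, at 18.5. The means were 44.1 ± 11.1 and 11.0 ± 7.48 CPM and the log2 fold change was -2.01 (SE 0.47, edgeR adjusted p = 0.00850), higher in TA in 5 of 5 animals. Its counts came mainly from Myh1-204, a short coding transcript of the 5′ end whose 261 own 31-mers lie in the 5′ untranslated region, with 28 in soleus and 150 in TA. The other counted transcripts, Myh1-203 and Myh1-201, had 11 and 5 counts in soleus and 37 and 8 in TA.

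Of the developmental chains, Myh8 (chromosome 11, 67277124 to 67308634, plus strand), the perinatal chain, was counted in both muscles. It had 740, 738 and 651 counts in the TA males and 923 and 575 in the females. In soleus it had 82, 175 and 111 in the males and 385 and 252 in the females. The muscles did not overlap, but the highest soleus library, at 507 CPM, was close to the lowest TA library, at 578. The means were 819 ± 179 CPM in TA and 252 ± 162 in soleus, and the log2 fold change was -1.85 (SE 0.32, edgeR adjusted p = 0.00145), higher in TA in 5 of 5 animals. Myh8 was the only member that passed the filter on low counts in every library of both muscles.

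The other developmental chain, Myh3 (chromosome 11, 67078300 to 67102291, plus strand), was at the limit of detection. It had 2 counts in 1 soleus library, the second female, and 2 in 1 TA library, the first male. It did not pass the filter. Fitted with no filter, its log2 fold change was -0.02 (SE 2.25, edgeR adjusted p = 0.996), an error too wide to show whether the muscles differ. Its 3 transcripts have 31, 75 and 35 own 31-mers, though 5289 to 5328 of the 31-mers in each are found in no other gene. Of 10 genes known from regenerating or denervated fibres, 8 were tested and 4 of those were not called. Over all tested genes 22.0% were called. Chrna1 and Sln, with Ncam1, were higher in soleus, and Actc1, the cardiac actin of developing muscle, was higher in TA, as Myh8 was. Their summed level was 353 to 577 CPM in soleus and 216 to 2488 in TA, and their part in the Myh8 difference was not tested.

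**Figure D2:**
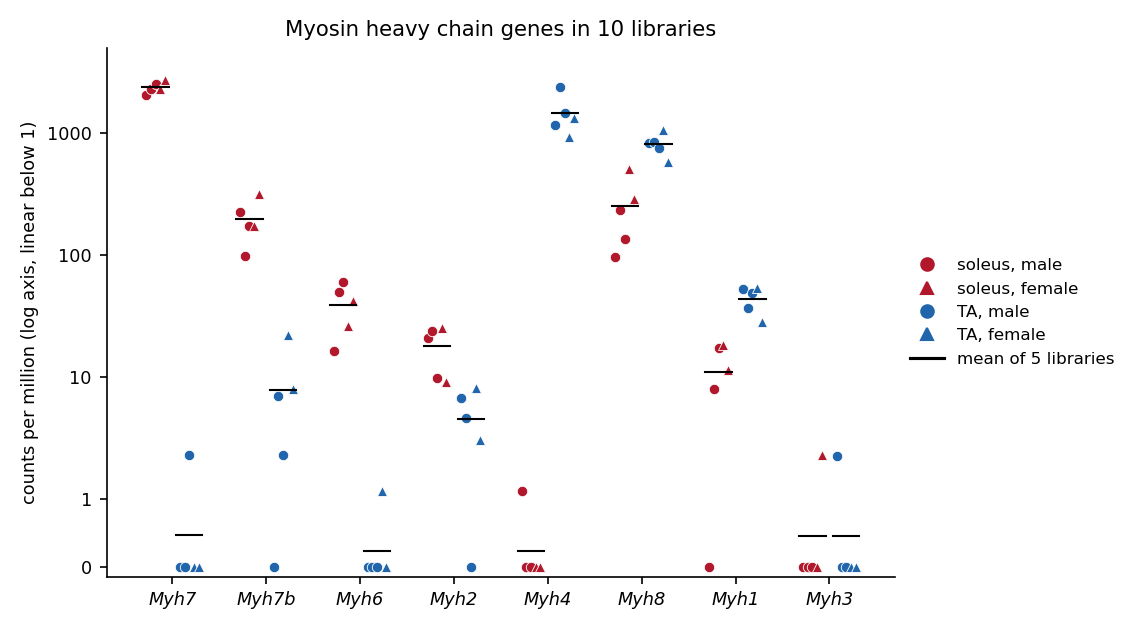
Level of each member in each library, in CPM after TMM scaling (vertical axis, logarithmic above 1 and linear below); red is soleus, blue is TA, circles are males, triangles are females and the bar is the mean of 5 libraries. Myh7 sits between 2079 and 2733 CPM in soleus and at or under 2.31 in TA, and Myh4 between 938 and 2396 in TA and at or under 1.17 in soleus.

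The transcripts of Myh8 went opposite ways. Myh8-201, the full coding transcript, had 729, 733 and 646 counts in the TA males and 908 and 565 in the females, and 68, 161 and 107 in the soleus males and 366 and 80 in the soleus females. The muscles did not overlap, and the log2 fold change was -2.09 (SE 0.41, edgeR adjusted p = 0.00296, transcript test). Without the first soleus female, the highest of soleus, it was -2.69. Myh8-204, a retained-intron transcript of 3190 own 31-mers, had 14, 14 and 3 counts in the soleus males and 19 and 172 in the females, and 7, 3 and 3 in the TA males and 10 and 10 in the TA females. Its log2 fold change was 2.55 (SE 0.68, edgeR adjusted p = 0.0162), higher in soleus in 5 of 5 animals although the libraries of the muscles overlapped.

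The size of that difference rested on 1 library, and its call on 2 others. The second soleus female held 172 of the 222 soleus counts. Without it the log2 fold change of Myh8-204 was 1.32 (SE 0.42, edgeR adjusted p = 0.0396). Without the first TA female the adjusted p was 0.0626, and without the second TA female 0.0713. In that soleus female Myh8-204 made up 68.3% of the Myh8 counts (172 of 252, exact 95% binomial interval 62.1% to 74.0%). In the other soleus libraries it made up 2.70% to 17.1%, and in TA 0.407% to 1.74%. The share of all retained-intron transcripts in the library was also highest in that female, at 12.5%. It was 7.93% to 10.8% in the other soleus libraries and 6.19% to 8.998% in TA, which overlap. Within TA the 2 shares did not move together: the females, at 6.19% and 6.20% of the library, had the highest Myh8-204 shares, 1.08% and 1.74%. The part of the library share in the Myh8-204 difference was not tested.

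With retained-intron transcripts left out, Myh8 as a gene kept its direction and call, at -2.08 (SE 0.40, edgeR adjusted p = 0.00251). The remaining Myh8 transcripts added little. Myh8-202, a short coding transcript of the 5′ end with 1722 own 31-mers, had 1 count in soleus and 13 in TA. Myh8-203, a retained-intron transcript with 555, had none.

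**Figure D3:**
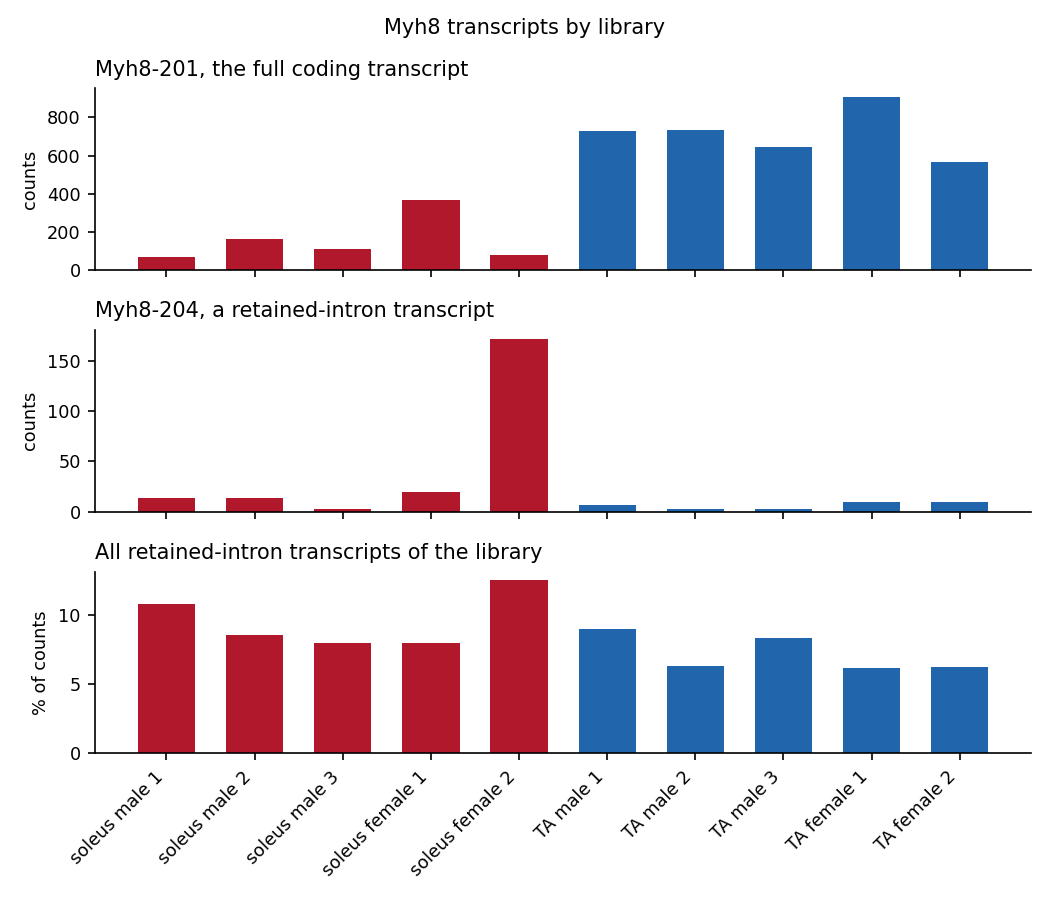
Counts of Myh8-201 (top) and Myh8-204 (middle) and the percentage of counts on all retained-intron transcripts, outside Gm20594 and Cep295 (bottom), in each of the 10 libraries; red is soleus and blue is TA, with 1 bar per library. Myh8-201 is lower in every soleus library than in any TA library, whereas Myh8-204 reaches 172 counts in the second soleus female and at most 19 in any other.

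Of the 5115 genes tested, 22.0% were called between the muscles in either direction, and 15.1% had libraries that did not overlap. In the transcript test these shares were 24.2% and 16.6% of 5089, with 12.6% called higher in soleus and 11.7% higher in TA. Of the 8 members, 7 passed the filter, which asked for at least 11.2 CPM in 2 or more libraries, and all 7 were called and did not overlap. That count is a description: Myh7 and Myh6 passed in soleus libraries alone and Myh4 in 5 TA libraries, so these had to differ. Myh2 passed in 3 soleus libraries and no TA library, which set its direction. Its call was lost in 3 of 10 fits with a library left out. Myh7b passed in 5 soleus libraries and 1 TA library, Myh1 in 2 soleus and 5 TA libraries, and Myh8 in 5 of each. By direction, 4 members were higher in soleus, where 11.0% of all tested genes were, and 3 in TA, where 11.0% were as well. Without the second soleus female all 7 kept their direction and call, with Myh8 at -1.79 and Myh2 at 2.22.

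On the scale of counts, Myh8 looked close to the leading adult chain of TA, and on the scale of own 31-mers it did not. In TA, Myh4 made up 61.3% ± 11.0 (SD, n = 5) of the counts on the 8 members and Myh8 36.1% ± 9.98. Divided by own 31-mers before summing, Myh4 made up 94.3% ± 2.87 and Myh8 2.78% ± 1.28, and divided by transcript length 54.7% ± 11.8 and 31.3% ± 7.52. The ratio of Myh4-201 to Myh8-201 in TA was 1.88 as counted, with a range of 0.888 to 2.82 over libraries, and 40.0 per own 31-mer, with a range of 18.8 to 59.8. In 1 TA library Myh8-201 had more counts than Myh4-201. Per own 31-mer Myh4-201 was higher in all 5. The 31-mers found in no other gene were near equal in number, at 4166 in Myh4-201 and 4131 in Myh8-201. Divided by those, the ratio would stay close to that of the counts. Which denominator fits is not known, since the counting tool is not given in the sources used here.

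In soleus, Myh7 made up 82.4% ± 4.52 of the member counts and Myh8 8.44% ± 5.01. Divided by own 31-mers the shares were 97.7% ± 0.593 and 0.434% ± 0.265. Myh7-201 had on average 17.7 times the counts of Myh8-201 and 13.6 times those of Myh7b-201, and per own 31-mer 361 and 669 times. Myh7 led in soleus, and Myh4 had the largest mean share in TA, on both scales. Read length is not given in the sources used here, and reads longer or shorter than 31 bases would give other denominators, most of all where the own stretch is short, as in Myh4-201 and Myh7-201.

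Ranked per own 31-mer, the chain of each muscle was followed at a distance by the rest. This scale, here and above, takes reads as evenly spread along a transcript, which was not checked. The labels name a Tag-Seq preparation and a SMART-Seq kit, and how these spread reads is not given in the sources used here. Own sequence lies at or near the ends in Myh4-201 and Myh7-201, and mostly within the coding sequence in Myh8-201 and Myh7b-201. Reads gathered at the ends would raise Myh4-201 and Myh7-201 over the other 2 on this scale, which was not tested. The rank takes the leading transcript of Myh7, Myh4, Myh8, Myh7b and Myh1, the tested members whose leading transcript is protein-coding. In soleus, Myh7-201 (18684 to 25101 CPM per 1000 own 31-mers over libraries) was followed by Myh8-201 (36.1 to 219), Myh7b-201 (18.3 to 61.4), Myh1-204 (0 to 50.6) and Myh4-201 (0 to 11.2). After Myh7-201, each neighbour in that order overlapped the next over libraries. In TA, Myh4-201 (8908 to 22978) was followed by Myh8-201 (254 to 473), Myh1-204 (64.5 to 159), Myh7-201 (0 to 21.2) and Myh7b-201 (0 to 4.12). The last 2 overlapped, and the other neighbours did not. Myh1-203, another Myh1 transcript, lay at 58.8 to 231 in TA. It overlapped Myh1-204 and did not reach Myh8-201. In soleus Myh1-203 (0 to 80.3, mean 46.9) and Myh1-201 (0 to 95.1, mean 47.4), with 59 and 26 own 31-mers, had means above that of Myh7b-201, 37.5, and Myh1-204 had one below, 27.3. The order of Myh7b and Myh1 in soleus thus turns with the Myh1 transcript taken.

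**Figure D4:**
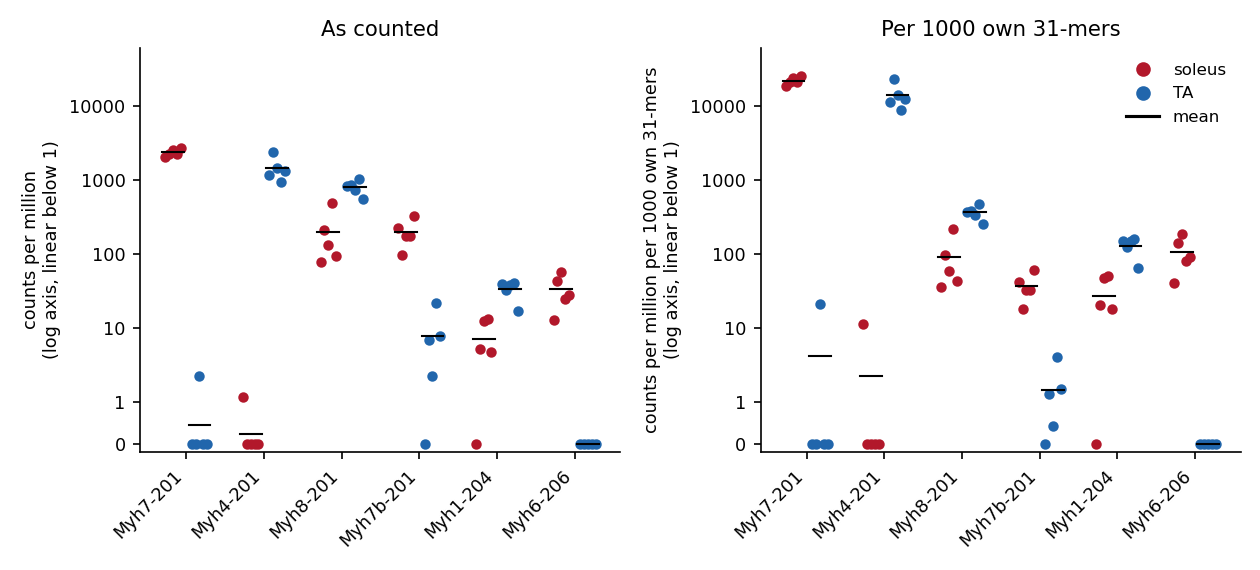
Levels of 6 transcripts in soleus (red) and TA (blue), as CPM (left) and as CPM per 1000 own 31-mers (right), on axes that are logarithmic above 1 and linear below, with 1 point per library and a bar at the mean. In TA, Myh4-201 and Myh8-201 lie close together at the left, with a ratio of 1.88, and far apart at the right, with a ratio of 40.0.

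Sex was compared within each muscle. None of the 7 tested members was called between females and males in soleus or TA, or in the test of whether that difference differed between muscles. The background was as sparse: 0.547% of genes were called in soleus (28 of 5115, edgeR; 845 at an unadjusted p under 0.05), 0.645% in TA (33; 596 unadjusted) and 0% in the interaction (0; 351 unadjusted, and 3 by DESeq2). An unadjusted p under 0.05 was reached by Myh8 in soleus, by Myh7b in TA and by Myh8 in the interaction. Myh8 in soleus had 82, 175 and 111 counts in males and 385 and 252 in females, without overlap. That separation rests on the retained-intron transcript: on Myh8-201 the males had 68, 161 and 107 and the females 366 and 80, which overlap, and 172 of the 252 counts in the second female were Myh8-204. Its log2 fold change, female over male, was 1.36 (SE 0.37, 95% interval 0.62 to 2.09, edgeR adjusted p = 0.108). With the DESeq2 Wald test its adjusted p was 0.0384, and with no filter on low counts it was 0.000128 by edgeR. In TA the same contrast was 0.02 (SE 0.37, adjusted p = 0.993), and the difference between muscles was 1.33 (SE 0.53, adjusted p = 0.711).

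Myh7b in TA had 0, 6 and 2 counts in males and 19 and 8 in females. The females were above the males, at a log2 fold change of 2.22 (SE 0.85, edgeR adjusted p = 0.322, and 0.00336 with no filter). The other members gave wider or smaller differences. Myh7 in soleus differed by 0.13 (SE 0.30, 95% interval -0.45 to 0.71), and Myh4 in TA by -0.57 (SE 0.33, 95% interval -1.22 to 0.09). Differences within those intervals are not excluded.

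The members lie in 3 places. Myh3, Myh2, Myh1, Myh4 and Myh8 follow each other on the plus strand of chromosome 11, with gaps of 2534 bases between Myh2 and Myh1, 13453 between Myh1 and Myh4 and 16677 between Myh4 and Myh8. Direction changed within that cluster: Myh2 was higher in soleus, and Myh1, Myh4 and Myh8, which follow it, in TA. Myh13, the extraocular chain beyond Myh8, had 0 counts. On chromosome 14 the adjacent Myh6 and Myh7 were both higher in soleus. Antisense genes overlap 4 members, and all had 0 counts: Myhas at Myh1, 9430073C21Rik at Myh2, Gm49130 at Myh6, and Mhrt, Gm29015 and Gm31251 at Myh7. Trpc4ap, a coding gene on the opposite strand, overlaps the 3′ end of Myh7b and had 19 counts in soleus and 23 in TA. The kit named in the labels keeps the strand, and the strand setting of the counting is not given in the sources used here.

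The starts of Myh7, Myh4 and Myh8, the 3 members with the most counts, are shown as the 150 bases upstream of the RefSeq start, the first of 2 for Myh7 (RefSeq, GRCm38.p6, coding strand), since 2 of them led opposite muscles. Motifs were searched on both strands in 250 bases upstream of every RefSeq start, 32851 in all. The letters were TATAAA of the TATA box, the E-box written CANNTG, the TEAD motif written CATTCC, and matches to the MEF2 site and the CArG box. Capitals mark the TATA box letters on either strand and the E-box. The places are chr14:54994627-54994776 (minus strand), chr11:67237662-67237811 (plus strand) and chr11:67276974-67277123 (plus strand).
Myh7: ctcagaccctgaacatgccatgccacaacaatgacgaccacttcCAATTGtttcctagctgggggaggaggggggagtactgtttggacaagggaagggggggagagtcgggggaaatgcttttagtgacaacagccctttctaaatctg
Myh4: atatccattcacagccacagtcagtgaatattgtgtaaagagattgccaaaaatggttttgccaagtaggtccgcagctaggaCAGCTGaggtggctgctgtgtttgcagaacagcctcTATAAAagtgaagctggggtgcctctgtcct
Myh8: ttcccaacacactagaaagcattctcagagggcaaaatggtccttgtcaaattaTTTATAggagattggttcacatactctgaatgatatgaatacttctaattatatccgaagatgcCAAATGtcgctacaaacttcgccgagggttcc
Myh4 has a TATAAA whose first base lies 31 bases upstream of its start, 1 of 3 in its 250 bases, and 1 CArG box 104 bases upstream. Myh8 has 1 TATAAA, 96 bases upstream, within a match to the MEF2 site that begins at 99, and Myh7 has none in this window. The other RefSeq start of Myh7 lies 77 bases downstream, and its window, not shown, holds other matches. Over all promoters TATAAA was present in 12.4%, CANNTG in 66.2%, CATTCC in 12.6%, the MEF2 site in 2.92% and the CArG box in 1.47%. Such matches are letters and show no binding. The Myh4 start used by RefSeq lies 217 bases upstream of the start of Myh4-201.

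The slow and cardiac members carry in their introns microRNAs with like seeds, the bases that pair with targets. The RefSeq sequences (GRCm38.p6) are given with the seed, bases 2 to 8, in capitals.
mmu-miR-208a-3p: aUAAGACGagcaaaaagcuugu
mmu-miR-208b-3p: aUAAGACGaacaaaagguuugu
mmu-miR-499-5p: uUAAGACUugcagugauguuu
They lie in intron 29 of Myh6, intron 31 of Myh7 and intron 19 of Myh7b. The first 2 share the seed UAAGACG, and miR-499-5p has UAAGACU. The microRNA genes themselves had 0 counts in all libraries, which cannot be read as an absence of the microRNAs. The 3 hosts were all higher in soleus.

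Around the members, the thick-filament partners split between muscles: of 19, 15 were tested, 5 were higher in soleus and 6 in TA. Of all tested genes 11.0% were called each way. The median log2 fold change of the partners was 0.12 beside 0.01 over all genes. The slow light chains Myl2 and Myl3 accompanied Myh7, with Myl2 at 758 counts in soleus and 0 in TA and Myl3 at 4447 and 22. On the TA side were Myom2, the M-band protein myomesin 2 (log2 fold change -2.43, SE 0.16), and Mylk4, of the myosin light chain kinase family (-4.50, SE 0.37). Mybpc3, the cardiac myosin-binding protein C, was at 0. Of the other heavy chains on the list, 2 were tested: Myo18b, a muscle myosin of the sarcomere, differed by 0.49 (SE 0.13, edgeR adjusted p = 0.0175), and Myh9, a nonmuscle chain, by -0.57 (SE 0.16, edgeR adjusted p = 0.0255).

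Of 11 genes of myosin folding and turnover, 5 were tested and 1 was called, near the 22.0% called over all tested genes. It was Klhl41, a regulator of sarcomere assembly, higher in soleus by 1.03 (SE 0.14, edgeR adjusted p = 0.000182). Unc45b, the myosin chaperone of muscle, had a log2 fold change of -0.31 (SE 0.26, edgeR adjusted p = 0.443). Of 26 regulators of the heavy chain genes, 21 were tested, 4 were higher in soleus and 6 in TA, beside 11.0% of all tested genes each way. The median over the 21 was -0.10. The 4 with the smallest p were Mafa at -2.70 (SE 0.22), Maf at -2.73 (SE 0.25), Prox1 at 3.94 (SE 0.40) and Sox6 at -2.61 (SE 0.34). Maf factors are known to drive Myh4, Prox1 to favour slow genes and Sox6 to repress them.

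The genes whose log2 CPM most resembled those of 3 members over the 10 libraries, among 4410 genes, are given as a description. For Myh7 they were Tnni1 (Pearson r = 0.997), Tnnc1 (0.995) and Atp2a2 (0.995), all of the slow-fibre markers. For Myh4 they were Ppp1r3a (0.994), Gapdh (0.991) and Phkg1 (0.990), genes of glycogen and glycolysis. For Myh8 they were Plcl1 (0.943), Nr1d2 (0.943) and Cmbl (0.925). Libraries fall into 2 muscles, so r over all 10 mostly carries the difference between them, most of all for Myh7 and Myh4.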

How the data were processed

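The deposited files hold counts of reads per Ensembl transcript, 1 file per library. Per the labels, 10 ng of total RNA entered a Tag-Seq preparation and a stranded SMART-Seq kit. The submitters' processing notes name bcl2fastq, Trimmomatic 0.32, FastQC and GRCm38.p4. Aligner, counter and read length are not given in the sources used here. Of 40414 transcripts 40359 matched GENCODE M21 by identifier, and the other 55 were left out. Soleus had 513984 to 632144 counts outside Gm20594 and Cep295 and TA 611106 to 696675.

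Counts were filtered with filterByExpr, scaled by TMM and tested with the edgeR 4.0.16 quasi-likelihood F test (R 4.3.3, limma 3.58.1), with sex as covariate or a mean per muscle and sex, and Benjamini-Hochberg adjustment over all features at 0.05. The edgeR gene test between muscles was run on simulated counts. It called 54 of 95 genes changed 2-fold, 97 of 100 changed 4-fold and 8 of 4643 unchanged, so many 2-fold differences can go uncalled. DESeq2 1.42.0, other scalings, no filter, a replicate block and leaving out each library were alternatives. Same-numbered libraries correlated at 0.183 to 0.239 in males, and at 0.285 in both female pairs by construction, after group means were removed. File names carry 1 animal tag for both muscles. Coding sequences were aligned with MAFFT 7.526. Plots used Python 3.11.15 and matplotlib 3.10.9.

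The members, gene lists and tests were chosen with earlier results of these data known. All members are named, with up to 4 called genes of the smallest p per list, genes at issue, neighbours, and the 3 genes most like Myh7, Myh4 and Myh8 (prior count 2, mean of at least 10 CPM). A comparison of protein sequences planned for this work was replaced by one of coding sequences.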

Additional observations from a re-analysis of the deposited data

Results flagged for a closer look

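In 2 of 19 groups of 5 libraries with at least 20 counts, 1 library lay farther from the others than Dixon's 95% limit for 5 samples allows, a gap that chance gives in about 1 group in 20. Both were the second soleus female and both were retained-intron transcripts. Myh8-204 was at 204 CPM there and at 25.1 CPM in the nearest other soleus library. Myh7-202 was at 66.4 CPM and at 8.66 CPM in the nearest. The full coding transcript Myh8-201 was at 94.8 CPM in that library, within the range of the other soleus libraries (79.5 to 483).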

How the results depend on the processing

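Of the 7 tested members, Myh1, Myh4, Myh6, Myh7, Myh7b and Myh8 kept direction and call in every alternative that tested them, and none reversed. Leaving out 1 library moved Myh7 between 11.68 and 14.01, Myh4 between -13.21 and -11.59, Myh6 between 6.49 and 8.08, Myh7b between 4.48 and 5.35, Myh8-201 between -2.69 and -1.87, Myh2 between 1.62 and 2.25 and Myh8-204 between 1.32 and 2.93 (log2), with the losses of call named above. Where this left 1 female in a group, its spread was taken from the other groups. With protein-coding transcripts only, Myh2 and Myh6 were not tested. The replicate block changed no member's call. It called 1207 genes and 1306 transcripts between muscles and 0 in the interaction. Called genes between muscles ran from 892 to 1353 with a library left out, and transcripts from 979 to 1528. With no filter the median log2 fold change of all genes was 0.25. The sex comparisons were less stable. In soleus, DESeq2 called 123 genes, no filter 449 and leaving out 1 library 1 to 1022, the last without the first soleus female. In TA these were 79, 240 and 1 to 162, and in the interaction 3, 58 and 0 to 79. The cause was not tested.

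Shares depended on the denominator by construction. In soleus, Myh7 made up 98.8% of Myh1, Myh2, Myh4 and Myh7 together, 71.9% per transcript length and 97.7% per own 31-mer, and Myh8 7.54% per transcript length and 0.434% per own 31-mer. In TA, Myh4 made up 96.3% of those 4 and 54.7% and 94.3% on the other 2, Myh8 31.3% per transcript length and 2.78% per own 31-mer, and Myh1 3.29%, 12.9% and 2.65% on the 3 scales. Myh3, Myh6-207 and Myh7-202 did not pass the filter and were not tested.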
